A study of Mus musculus with 6 samples.

Results

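The genes described here are the TGF-beta ligands Tgfb1, Tgfb2 and Tgfb3, their receptors Tgfbr1 and Tgfbr2, the latent binding proteins Ltbp1, Ltbp2, Ltbp3 and Ltbp4, and the TGF-beta induced matrix protein Tgfbi. They were taken by gene symbol in the array annotation, which gave 26 probe sets for these 10 genes among 45037 probe sets that are not array controls. RNA of primary aortic endothelial cell cultures was hybridised to Affymetrix mouse arrays. The transgenic cultures came from mice carrying a dominant negative human PPARG with the V290M change under the endothelial CDH5 promoter, and the reference cultures from non-transgenic mice. All mice were of strain C57 per the labels and all cells were untreated. In each group 10 mice gave 5 cultures of 2 pooled mice, and 3 separate cultures per group were arrayed, so that n = 3 in each. The age of the mice is not stated in the labels.

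TGF-beta is made as a precursor whose cleaved propeptide stays wrapped around the growth factor and keeps it latent. Most cells secrete this small latent complex joined to a latent TGF-beta binding protein, which ties it to fibrillin and fibronectin in the matrix until integrins, thrombospondin or proteases free the ligand. Free ligand binds the type II receptor, which activates the type I receptor, and that phosphorylates Smad2 and Smad3. In endothelium the pathway is known for its part in vessel maturation and in the shift of endothelial cells towards a mesenchymal state.

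The arrays differed in more than their labels. Transgenic replicate 3 had a mean rank correlation across genes of 0.907 with the other transgenic arrays and of 0.972 with the non-transgenic arrays. Differences of the family, pathway and leukocyte genes named below are therefore also given without it where the call changes. For Gapdh, the array's controls near the 3' and the 5' end of the transcript give a ratio that reads RNA integrity. It was 1.35, 1.20 and 1.44 on the transgenic arrays, against 1.71, 1.55 and 1.51 on the non-transgenic arrays. The lower transgenic ratios all lay under the non-transgenic ones (two-sided exact permutation p = 0.1, which 3 arrays against 3 cannot go below). Their part in the results was not tested. The cells were labelled endothelial, but Cdh5, Pecam1 and Nos3, which define that type, lay under the level filter on all 6 arrays. On average 7 of 18 endothelial markers reached it, against 16 of 16 fibroblast and 9 of 12 smooth muscle markers. The endothelial markers Flt1, Eng, Cd34, Ramp2, Plvap and Emcn were above it on all 6 arrays. Of the smooth muscle markers, Cnn1 was under it on all 6 arrays, and Myh11 and Des were under it on average. The summed signal of the fibroblast markers was 197530 to 213732 in transgenic and 200291 to 225461 in non-transgenic cultures. That of the smooth muscle markers was 69636 to 92024 and 66737 to 84683. Such sums rest mostly on the brightest markers. Of the 16 fibroblast markers, 8 lay higher and 8 lower in the transgenic group, by -1.53 to 0.90 on the log2 scale. With all 6 arrays 0 of them passed limma's test. Without transgenic replicate 3, limma called 31.2% of them, 2 higher and 3 lower, against 14.7% of all genes tested. In such bulk RNA, fewer cells of a type and less RNA per cell cannot be told apart.

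No gene of the family passed the test with all 6 arrays. Ltbp2 lay 3.18-fold higher and Tgfb1 1.62-fold higher in the transgenic group, each with all 3 transgenic cultures above every non-transgenic one. Tgfb2, Tgfb3 and Ltbp4 lay low and Tgfbr1 high in transgenic replicates 1 and 2, while replicate 3 lay beyond the opposite end of the non-transgenic range. Tgfbr2, Ltbp1 and Ltbp3 differed by less than 0.1 on the log2 scale. Values are log2(signal + 16) of the probe set of each gene with the highest mean. Differences are transgenic minus non-transgenic with limma's standard error (SE, n = 3 per group, or 2 transgenic cultures where transgenic replicate 3 is left out). On that scale the change of dim genes is understated. The plot of signal by culture shows both patterns, the shared one and the one split between the transgenic cultures.

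**Figure D1:**
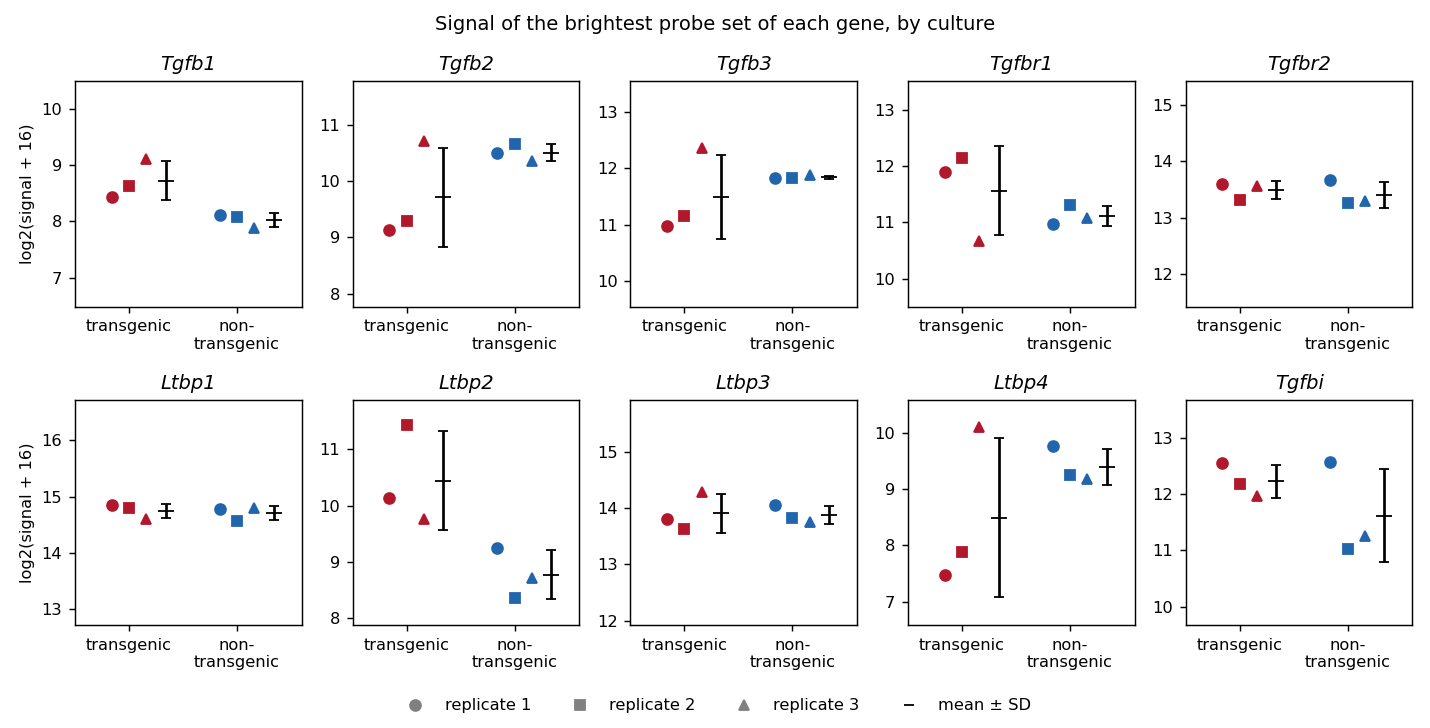
log2(signal + 16) of the brightest probe set of each gene in the transgenic (red) and non-transgenic (blue) cultures, with a marker shape per replicate and the mean ± SD in black (n = 3 per group); every panel spans the same number of log2 units. The groups are apart for Tgfb1 and Ltbp2, and for Tgfb2, Tgfb3, Tgfbr1 and Ltbp4 the transgenic replicate 3 (triangle) lies away from the other transgenic cultures.

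Over the 11208 genes tested, limma with Benjamini-Hochberg adjustment passed 0 (0%), and no adjusted p was under 0.428. Before adjustment, 1288 genes had a p under 0.05 (11.5%, with 6.47% higher), among them 2 of the 10 family genes, Ltbp2 and Tgfb1, both higher. The groups did not overlap for these 2 genes, where 16.1% of all genes tested were apart, 9.39% higher and 6.72% lower. Of the family, 7 genes lay higher and 3 lower, against 47.5% and 52.5% of all genes tested. The median difference over the 10 genes was 0.06, against -0.02 over all genes tested. All 10 genes reached the level filter on their brightest probe set, as did 20 of the 26 probe sets. Without transgenic replicate 3, limma called 5 of the 10 genes, Ltbp2 and Tgfbr1 higher and Tgfb2, Tgfb3 and Ltbp4 lower. The share over all genes tested was 14.7%, 6.88% higher and 7.83% lower. That array was singled out from these same data, and 2 transgenic cultures remain without it. In Tgfbr1, Tgfb2, Tgfb3 and Ltbp4 it lay opposite to the other transgenic cultures, so leaving it out shrinks their spread. Calls made without it, here and below, hold only under that choice. With array weights estimated from the data limma called 8 of the 10, against 49.1% of all genes tested. That fit rested mostly on transgenic replicate 1 and non-transgenic replicate 2, with weights of 5.25 and 4.65, against 0.177 to 1.20 for the other arrays. The separate cultures are the only replication, and 3 per group limit the precision of every value.

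The DNA before the start of 3 of these genes is shown because they carry both patterns: Ltbp2 and Tgfb1, which were apart between the groups, and Tgfb2, the ligand with the largest difference. The sequences are RefSeq's for build GRCm38.p6, 250 bases before the annotated start, 5' to 3' on the gene's strand, at chr12:84876492-84876741, minus strand, for Ltbp2, at chr7:25686752-25687001, plus strand, for Tgfb1, and at chr1:186705990-186706239, minus strand, for Tgfb2. Capitals mark CAGAC, the core of the DNA element that Smad proteins bind, read on both strands (GTCTG on the other).
Ltbp2: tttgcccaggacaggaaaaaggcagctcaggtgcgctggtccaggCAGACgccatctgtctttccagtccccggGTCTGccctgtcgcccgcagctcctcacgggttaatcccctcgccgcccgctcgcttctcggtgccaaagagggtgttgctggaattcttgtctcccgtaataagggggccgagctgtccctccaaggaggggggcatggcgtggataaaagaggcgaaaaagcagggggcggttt
Tgfb1: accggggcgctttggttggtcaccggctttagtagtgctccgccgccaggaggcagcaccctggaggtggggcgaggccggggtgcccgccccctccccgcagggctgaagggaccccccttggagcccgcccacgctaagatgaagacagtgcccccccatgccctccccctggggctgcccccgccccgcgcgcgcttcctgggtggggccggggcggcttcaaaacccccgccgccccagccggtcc
Tgfb2: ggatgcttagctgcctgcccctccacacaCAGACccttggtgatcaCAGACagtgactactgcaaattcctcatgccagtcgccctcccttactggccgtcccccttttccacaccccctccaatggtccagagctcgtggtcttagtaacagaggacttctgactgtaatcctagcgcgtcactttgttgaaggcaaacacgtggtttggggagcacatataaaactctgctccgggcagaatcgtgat
Ltbp2 and Tgfb2 held 2 such matches each and Tgfb1 held 0. RefSeq's table had 13 starts for 9 of the 10 genes, of which 8 held CAGAC within 250 bases, against 42.2% of all 32851 starts in the table. The nuclear receptor half-site AGGTCA, read on both strands, was found before 0 of the 13 starts and before 14.0% of all starts. Its direct repeat with 1 free base between the copies, the form PPARG binds with its partner RXR and which contains the half-site, was found before 0 of the 13 and 0.0335% of all starts. TGANTCA, the AP-1 site, was found before 0 of the 13 and 6.75% of all starts. These are matches of letters in a short window and say nothing of binding.

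Among the ligands, Tgfb1, the main form in blood vessels and platelets, was at 8.44, 8.63 and 9.10 in the transgenic cultures, against 8.11, 8.08 and 7.88 in the non-transgenic cultures. Every transgenic value lay above every non-transgenic one, and transgenic replicate 3 was the highest. The difference was 0.70 ± 0.29 (SE) and did not pass (limma adjusted p = 0.429). It was 0.51 without transgenic replicate 3 (limma adjusted p = 0.24). A dim second probe set of Tgfb1 lay under the filter on all arrays, at 6.33, 6.89 and 6.27 in transgenic and 6.74, 6.31 and 6.48 in non-transgenic cultures, and its groups overlapped.

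Tgfb2, the ligand needed for heart valve and outflow tract formation in mouse embryos, was at 9.13, 9.29 and 10.71 in transgenic cultures, against 10.49, 10.66 and 10.36 in non-transgenic cultures. Transgenic replicates 1 and 2 lay below all non-transgenic cultures, and replicate 3 just above the highest of them. The difference was -0.80 ± 0.42 (SE, limma adjusted p = 0.468), and -1.30 ± 0.22 without transgenic replicate 3 (limma adjusted p = 0.0115). All 4 probe sets of Tgfb2 reached the filter and lay lower in the transgenic group, by -0.42 to -0.80. In each of the 4, transgenic replicate 3 was above every non-transgenic culture and replicates 1 and 2 below every one. On the dimmest of the 4, transgenic replicate 3 was all but level with non-transgenic replicate 1, at 9.324 against 9.323.

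Tgfb3, known from mouse palate and lung development, was at 10.97, 11.15 and 12.35 in transgenic cultures, against 11.83, 11.83 and 11.88 in non-transgenic cultures. The non-transgenic cultures lay within 0.05 of each other, and the transgenic cultures lay on both sides of them. The difference was -0.35 ± 0.35 (SE, limma adjusted p = 0.682) with all arrays. Without transgenic replicate 3 it was -0.78 ± 0.17 (limma adjusted p = 0.0228), and without transgenic replicate 1 it was -0.09.

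Of the receptors, Tgfbr1, the type I kinase that phosphorylates Smad2 and Smad3, was at 11.89, 12.13 and 10.67 in transgenic cultures, against 10.97, 11.30 and 11.08 in non-transgenic cultures. It ran opposite to Tgfb2 and Tgfb3 across the transgenic cultures, high in replicates 1 and 2 and low in replicate 3. The difference was 0.45 ± 0.37 (SE, limma adjusted p = 0.622), and 0.90 ± 0.19 without transgenic replicate 3 (limma adjusted p = 0.0219). Its second probe set, at 8.73, 10.02 and 8.00 in transgenic and 8.11, 8.17 and 8.90 in non-transgenic cultures, was highest in transgenic replicate 2 and lowest in replicate 3. The third probe set lay under the filter on all arrays.

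Tgfbr2, the type II kinase that binds the ligand first, was at 13.61, 13.31 and 13.57 in transgenic cultures, against 13.67, 13.26 and 13.29 in non-transgenic cultures. The groups overlapped throughout, with a difference of 0.09 and a 95% interval from -0.28 to 0.45. A second Tgfbr2 probe set, under the filter on average, was at 7.87, 7.94 and 7.35 in transgenic cultures, against 7.12, 7.05 and 5.14 in non-transgenic cultures. Its groups did not overlap, and the lowest value, non-transgenic replicate 3, was a signal of 19.3. With every probe set tested, its difference was 1.28 ± 0.54 (SE, limma adjusted p = 0.354), unlike the bright probe set of the same gene. The third Tgfbr2 probe set lay between 5.09 and 6.03 on all arrays.

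**Figure D2:**
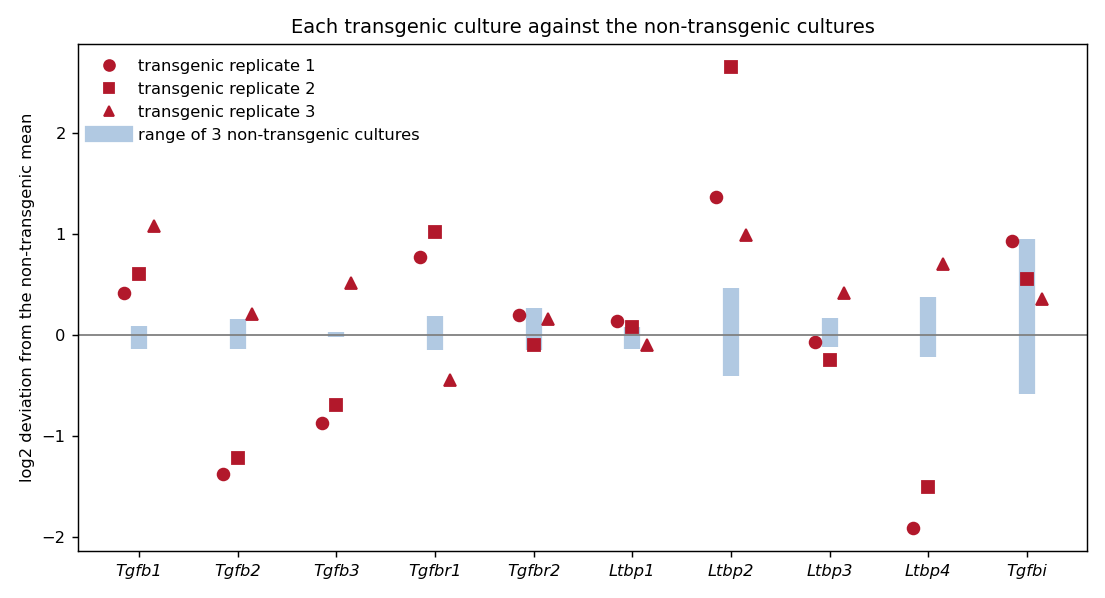
Deviation of each transgenic culture (red, a marker shape per replicate) from the mean of the non-transgenic cultures on the log2 scale, with the range of the 3 non-transgenic cultures as a blue bar. Tgfb2, Tgfb3 and Ltbp4 lie below the bar in transgenic replicates 1 and 2 and above it in replicate 3, Tgfbr1 the other way round, and Tgfb1 and Ltbp2 lie above it in all 3.

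The latent binding proteins differed among themselves. Ltbp2, which binds fibrillin but, unlike the others, no latent TGF-beta, had signals of 1109, 2738 and 852 in transgenic cultures, against 589, 315 and 403 in non-transgenic cultures. On the log2 scale these were 10.13, 11.43 and 9.76, against 9.24, 8.37 and 8.71. All transgenic cultures were above all non-transgenic ones, replicate 2 the most. The difference was 1.67 ± 0.46 (SE), rank 131 of 11208 genes by p, and did not pass (limma adjusted p = 0.428). Without transgenic replicate 3 it was 2.01 ± 0.42 and passed (limma adjusted p = 0.0206), and without transgenic replicate 2 it was 1.18 ± 0.35 and did not (limma adjusted p = 0.726). The gene has 1 probe set on the array.

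Transgenic replicate 2, the highest in Ltbp2, also had the highest summed signal of leukocyte and macrophage markers. That sum was 11592, 22128 and 4854 in transgenic cultures, against 4931, 3275 and 3893 in non-transgenic cultures, with 5, 10 and 4 of the 15 markers above the filter, against 5, 4 and 5. Of the 15 markers, 4 were tested. Csf1r, the receptor for the macrophage growth factor Csf1, was at 11.03, 10.49 and 10.59 in transgenic cultures, against 8.94, 9.06 and 8.61 in non-transgenic cultures, and had the smallest p of all genes tested (1.83 ± 0.26, limma adjusted p = 0.428). It was higher in all 3 transgenic cultures, replicate 3 included, while the summed signal of replicate 3 lay inside the non-transgenic range. The leukocyte membrane protein Cd53 differed by 2.54 ± 1.25, the lysozyme Lyz2 by 1.15 ± 0.64 and the endotoxin co-receptor Cd14 by -0.17 ± 0.40, each with overlapping groups. Without transgenic replicate 3, limma called Csf1r (1.88 ± 0.28, adjusted p = 0.00718) and Cd53 (4.05 ± 0.67, adjusted p = 0.0104) higher. Of the markers that define these cells, Ptprc, Adgre1 and Itgam were under the filter on all 6 arrays, and Cd68 was above it in transgenic replicates 1 and 2 only. Ptprc was lower in the transgenic cultures, at 5.89, 5.83 and 5.88, against 7.66, 5.96 and 7.16 in the non-transgenic cultures. Tyrobp and Adgre1 also differed downwards (-0.34 and -0.06). The other leukocyte markers under the filter on average differed upwards, by 0.04 to 1.02. The summed adipocyte markers ran the other way, at 50199, 28264 and 52490 in transgenic cultures, against 97597, 64477 and 66065 in non-transgenic cultures. Transgenic replicate 2 also had the highest summed smooth muscle markers, 92024, against 66737 to 84683 on the other arrays. The same held for the mesothelial and epithelial markers, at 6525 against 2482 to 5217. The fibroblast and endothelial sums were highest on other arrays. These leukocyte genes were named after their values were seen. The part of any of these cell types in the Ltbp2 values was not tested.

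The 3 genes whose log2 values were most like those of Ltbp2 over the 6 arrays were Coro1c, an actin-binding coronin, Uchl1, a ubiquitin hydrolase known from neurons, and Farp1, with Pearson r of 0.999, 0.998 and 0.996. The points share group, culture and array, 11208 genes were searched, and r is given as a description. Uchl1 was at 11.43, 12.40 and 11.18 in transgenic cultures, against 10.95, 10.30 and 10.51 in non-transgenic cultures, in the same order of cultures as Ltbp2.

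Ltbp4, an LTBP that organises elastic fibres and carries latent TGF-beta 1, was at 7.48, 7.88 and 10.10 in transgenic cultures, against 9.77, 9.24 and 9.17 in non-transgenic cultures. Transgenic replicates 1 and 2 were the lowest of the 6 and transgenic replicate 3 the highest. The difference was -0.91 ± 0.64 (SE, limma adjusted p = 0.568), and -1.71 ± 0.31 without transgenic replicate 3 (limma adjusted p = 0.0127). Elastin, Eln, the main protein of elastic fibres, was at 7.59, 7.99 and 9.52 in transgenic cultures, against 9.87, 8.86 and 8.67 in non-transgenic cultures, and was likewise low in transgenic replicates 1 and 2. It was named after its values were seen.

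Ltbp1 and Ltbp3, which both carry small latent complexes into the matrix, differed little. Ltbp1 was at 14.85, 14.79 and 14.61 in transgenic cultures, against 14.77, 14.57 and 14.79 in non-transgenic cultures, a difference of 0.04 with a 95% interval from -0.21 to 0.29. Ltbp3 was at 13.80, 13.63 and 14.29 in transgenic cultures, against 14.05, 13.83 and 13.75 in non-transgenic cultures, a difference of 0.03 with an interval from -0.39 to 0.45. The sign of both small differences changed when single arrays were left out. On all 4 Ltbp3 probe sets transgenic replicate 3 was the highest of the 6 arrays, and 2 of the 4 lay under the filter on average.

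Tgfbi, a secreted adhesion protein named for its induction by TGF-beta, was at 12.55, 12.17 and 11.97 in transgenic cultures, against 12.57, 11.03 and 11.26 in non-transgenic cultures. Non-transgenic replicate 1 was the highest of the 6, so the groups overlapped. The difference was 0.61 ± 0.39 (SE, limma adjusted p = 0.532), and single arrays moved it, to 1.09 without non-transgenic replicate 1 and 0.32 without non-transgenic replicate 2. All 4 Tgfbi probe sets lay higher in the transgenic group, by 0.14 to 0.61, and on each non-transgenic replicate 2 was the lowest. Without that array the other 3 probe sets were at -0.041, -0.09 and -0.011.

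**Figure D3:**
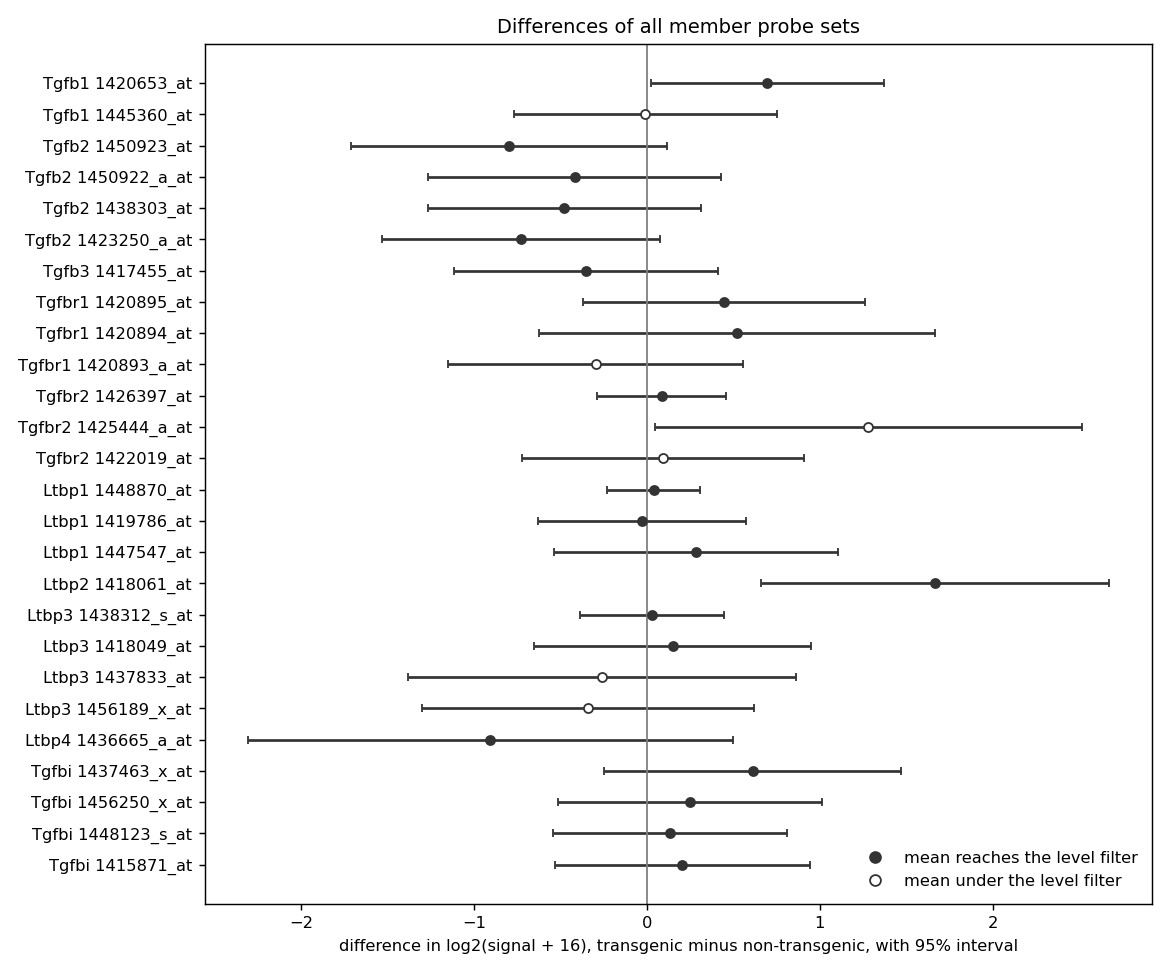
Difference of each of the 26 probe sets, transgenic minus non-transgenic in log2(signal + 16), with the 95% interval of limma's fit to all probe sets (n = 3 per group); open points lie under the level filter on average. The intervals of Tgfb1 (bright probe set), Ltbp2 and a dim Tgfbr2 probe set exclude 0 before adjustment, and the probe sets of Tgfb2 and of Tgfbi lie on one side of 0.

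Transgenic replicate 3 lay beyond the opposite end of the non-transgenic range from the other transgenic cultures in 4 of the 10 genes, Tgfb2, Tgfb3, Tgfbr1 and Ltbp4, and in 15.2% of all genes tested. This way of counting was chosen after the values were seen. Relative to the non-transgenic range, 6 of the 10 genes were higher and 1 lower in transgenic replicate 3, against 38.4% and 22.3% of all genes. In transgenic replicate 1 the counts were 4 higher and 3 lower, against 33.9% and 35.9% of all genes, and in replicate 2 they were 3 and 4, against 31.9% and 42.7%. The counts in these 2 cultures are near those shares.

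The rest of the pathway was read from lists of genes fixed by name, of which Lrrc32 and Fbn1 were not analysed here. Of 10 co-receptors and accessory proteins, all reached the filter, 0 passed the test over all genes, and the median difference was -0.05. Nrp1, a co-receptor for VEGF and TGF-beta, was at 13.55, 13.36 and 14.39 in transgenic cultures, against 14.72, 14.77 and 14.89 in non-transgenic cultures. All 3 transgenic cultures were lower, by -1.03 ± 0.25 (SE, limma adjusted p = 0.428), and its 4 tested probe sets had the same sign. Without transgenic replicate 3, Nrp1 differed by -1.34 ± 0.11 (limma adjusted p = 0.00206). Bambi, a decoy receptor, differed by -0.52 ± 0.32, and by -0.85 ± 0.21 without transgenic replicate 3 (limma adjusted p = 0.0337). Cd109, a co-receptor that dampens signalling, differed by 0.31 ± 0.15. Tgfbr3, or betaglycan, which presents ligand, differed by -0.13 ± 0.10, and 1 of its 2 probe sets had the opposite sign. The adaptor Dab2 differed by -0.25 ± 0.16, and 2 of its 3 tested probe sets had that sign. The endothelial receptors Acvrl1 and Eng differed by 0.15 ± 0.26 and 0.12 ± 0.25.

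Of 15 Smads, partners and inhibitors, 10 lay higher and 5 lower, with a median of 0.09, and 0 passed. Smad3, a receptor-activated Smad, was at 13.49, 13.61 and 13.39 in transgenic cultures, against 13.19, 13.12 and 12.80 in non-transgenic cultures. Its groups did not overlap, and it differed by 0.47 ± 0.15 (SE, limma adjusted p = 0.428). Smad7, the inhibitory Smad that TGF-beta itself induces, was at 12.48, 13.13 and 12.78 in transgenic cultures, against 12.48, 12.26 and 12.15 in non-transgenic cultures, with the lowest transgenic value just under the highest non-transgenic one. Smad2 differed by -0.08 ± 0.19 and the common partner Smad4 by -0.16 ± 0.13. Smad6, the inhibitor of BMP signalling, differed by -0.54 ± 0.62, and by -1.32 ± 0.31 without transgenic replicate 3 (limma adjusted p = 0.0282). The corepressor Tgif1 differed by 0.30 ± 0.20 with its groups apart.

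Of 14 activators of latent TGF-beta on the array, 11 were tested and 0 passed, with 5 higher and 6 lower and a median of -0.05. Thrombospondin 1, Thbs1, which frees TGF-beta from its propeptide, was at 14.02, 14.26 and 12.72 in transgenic cultures, against 13.29, 12.49 and 12.41 in non-transgenic cultures. The difference was 0.94 ± 0.41 (SE, limma adjusted p = 0.437). Without transgenic replicate 3 it was 1.41 ± 0.26 (limma adjusted p = 0.0134). Bmp1, a protease that cleaves Ltbp1, differed by 0.68 ± 0.28, the integrin subunit Itgb1 by -0.29 ± 0.14 and the gelatinase Mmp2 by -0.52 ± 0.35. Mmp2 was at -0.89 without transgenic replicate 3 (limma adjusted p = 0.0473).

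Of 13 matrix partners tested, 5 lay higher and 8 lower, with a median of -0.16, and 0 passed. Transglutaminase 2, Tgm2, which crosslinks latent complexes to the matrix, was at 14.00, 14.19 and 13.72 in transgenic cultures, against 13.47, 13.44 and 13.32 in non-transgenic cultures. It lay higher in all 3, by 0.56 ± 0.14 (SE, limma adjusted p = 0.428), on all 5 tested probe sets. The proteoglycans Dcn, Fmod and Bgn, which bind TGF-beta, differed by -1.44 ± 0.52, -1.72 ± 0.90 and -0.16 ± 0.08. Dcn was at 13.16, 11.79 and 14.18 in transgenic cultures, against 14.15, 14.57 and 14.71 in non-transgenic cultures, with transgenic replicate 3 just inside the non-transgenic range. Without that array, limma called Tgm2 higher (0.68, adjusted p = 0.0122) and Dcn and Fmod lower (-2.01, adjusted p = 0.0127, and -2.91, adjusted p = 0.00406).

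Genes known as TGF-beta targets were mixed. Of 24 tested, 14 lay higher and 10 lower, with a median of 0.14, and 0 passed. Beside Tgm2, which is on this list too, the smallest p belonged to the transcription factor Bhlhe40 at 1.81 ± 0.58, the metalloprotease inhibitor Timp1 at 0.53 ± 0.18 and the leucine zipper protein Tsc22d1 at -0.52 ± 0.16 (limma adjusted p = 0.428 each). For Tsc22d1, 2 of 6 probe sets had the opposite sign. The groups were apart for 5 of the 24 genes, against 16.1% of all genes tested. Tgm2 lay higher and Tsc22d1, Id1, Snai2 and Ccn1 lower, the last 3 named after their values were seen. For Ccn1, 3 of 4 tested probe sets were lower. Without transgenic replicate 3, 20.8% of the target genes were called, Tgm2, Bhlhe40 (2.36, limma adjusted p = 0.0178) and Timp1 (0.75, limma adjusted p = 0.00499) higher and 2 lower, among them Tsc22d1 (-0.68, limma adjusted p = 0.0134), against 14.7% of all genes.

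**Figure D4:**
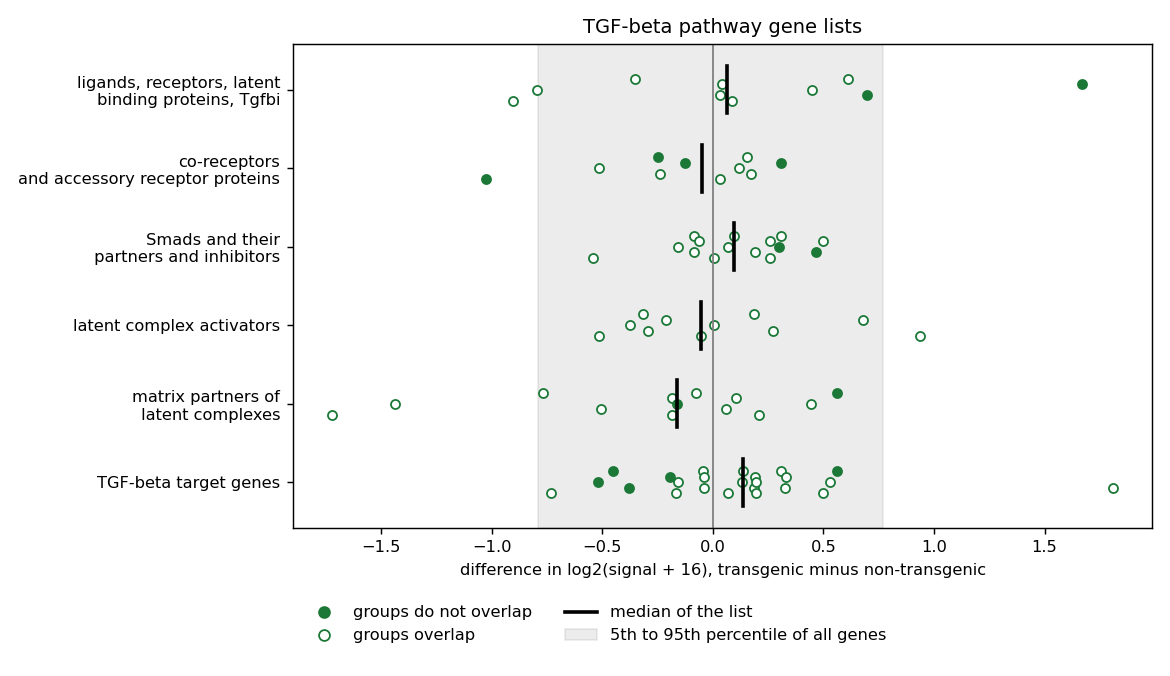
Differences of single genes, transgenic minus non-transgenic in log2(signal + 16), for the ligands, receptors, latent binding proteins and Tgfbi and for 5 lists of other pathway genes; filled points have groups that do not overlap, black bars are list medians and the grey band is the 5th to 95th percentile of all genes tested. The medians lie between -0.16 and 0.14, and Ltbp2, Bhlhe40, Fmod and Dcn lie farthest from 0.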

How the data were processed

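RNA of 6 cultures was amplified from about 50 ng in a two-step procedure, per the labels' protocols. The deposited values are linear intensities of single probe sets that the authors computed in MAS5, as the submitters' processing notes name it. No version or genome build is given in the sources used here. Median signals were 173 to 186.1 on transgenic and 219.9 to 222.9 on non-transgenic arrays, with a trimmed mean of 1493.5 to 1495.2. The scaling was kept. The near-equal trimmed means do not test whether it suits dim probe sets, since all transgenic medians lay under all non-transgenic ones. With quantile normalization the difference of Tgfb1 was 0.92, against 0.70 with the scaling kept. Signal over background limits the precision of dim probe sets, and detection calls were not used. Of 45101 probe sets, 64 were array controls, 34945 had 1 gene symbol, 932 several and 9160 none in the array annotation. Symbols were updated through gene identifiers for 34741 with RefSeq's table for GRCm38.p6.

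Values were taken as log2(intensity + 16). The brightest probe set stood for each of the 18193 genes. Those with a mean at or above the median probe set, 11208 genes, were tested. That level is a log2 value of 7.717 or a signal of 194. The test was limma 3.58.1 in R 4.3.3 (lmFit, eBayes with a trend, two-sided, Benjamini-Hochberg at 0.05). The probe sets were fitted alone in the same way, 22519 above that level and 45037 without a filter, and values given for second probe sets come from the fit without a filter. The fit was checked on simulated arrays. The genes, the lists, and the rule for the genes named were chosen with earlier results of these data known. The rule takes all 10 family genes with every probe set, the 4 genes with the smallest p of each pathway list, Smad2, Smad3, Smad4, Smad6, Smad7, Tgfbr3, Eng and Acvrl1, and the 3 genes most like the family gene with the smallest p. Alternatives were other pseudocounts, filters, scaling, variance priors, array weights and probe set averaging, the replicate number as a block, and each array left out.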

Additional observations from a re-analysis of the deposited data

How the results depend on the processing

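With 6 arrays no gene and no probe set was called under other pseudocounts, filters, quantile normalization, no variance trend or a replicate block (0 genes with the block, smallest limma adjusted p = 0.459). The deviations of same-numbered cultures from their group means correlated at 0.042, -0.278 and -0.034, and the block changed no call. With 3 arrays per group, such correlations cannot tell whether the cultures were prepared in pairs. Estimated array weights gave 5504 genes and 11078 probe sets, with weights of 5.25, 0.349 and 0.177 for the transgenic and 0.553, 4.65 and 1.20 for the non-transgenic arrays; for the probe sets the estimate stopped before its tolerance was met. Leaving out single arrays gave 0 to 1649 genes and 0 to 4023 probe sets, calls arising only without transgenic replicate 3. The median difference of the 10 genes was 0.25 with array weights and 0.01 to 0.17 when single arrays were left out.

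Of 145 single-gene values under alternatives, 6 changed sign and 13 became calls, 8 of these with array weights. Ltbp3 was -0.025 under array weights, -0.10 when its probe sets were averaged and -0.16 to 0.17 when single arrays were left out, and Ltbp1 was -0.031 to 0.11 when single arrays were left out. Over the alternatives in which a gene reached the filter, Ltbp2 ranged from 1.18 to 2.01, Tgfb1 from 0.42 to 0.92, Tgfb2 from -1.41 to -0.51, Tgfb3 from -0.81 to -0.09, Ltbp4 from -1.71 to -0.40, Tgfbr1 from 0.16 to 0.90, Tgfbr2 from 0.01 to 0.49 and Tgfbi from 0.30 to 1.30. With averaged probe sets 9 of the genes were tested, and Tgfb1 fell under the filter. With the filter at the 75th percentile 6 were tested, and Tgfb1, Tgfb2, Ltbp2 and Ltbp4 fell under it. The values of largest size came without transgenic replicate 3 for Ltbp2, Ltbp4 and Tgfbr1, with array weights for Tgfb2, Tgfb3 and Tgfbi, with quantile normalization for Tgfb1 and with averaged probe sets for Tgfbr2. The cause was not tested. The 3' to 5' ratio of beta-actin differed by -0.219 between the groups, with overlap, against -0.257 for Gapdh.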

Other observations

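Among the 69 other pathway genes tested, 9 (13%) showed the same split as Tgfb2, Tgfb3, Ltbp4 and Tgfbr1, with transgenic replicates 1 and 2 beyond one end of the non-transgenic range and replicate 3 beyond the other, where 15.2% of all genes tested did. This count was chosen after the values were seen. Of the 9, 5 were low in transgenic replicates 1 and 2. Fmod, the collagen-binding proteoglycan fibromodulin, was at 10.37, 9.24 and 13.37 in transgenic cultures, against 12.63, 12.50 and 13.01 in non-transgenic cultures. Smad6 was at 7.89, 8.71 and 10.62 in transgenic cultures, against 9.55, 9.74 and 9.57 in non-transgenic cultures. Mfap2, a microfibril protein, Bambi and Smad4 were the others. Strap, Fkbp1a, the ubiquitin ligase Wwp1 and the collagen crosslinking enzyme Lox were high in transgenic replicates 1 and 2 and low in replicate 3.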
